A study of Drosophila melanogaster with 6 samples.

Results

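Ribosomal protein genes encode the protein components of the large and small subunits of the cytoplasmic ribosome. They were taken as the genes whose symbol begins with RpL or RpS followed by a letter or digit, together with sta, and genes of the mitochondrial ribosome (mRpL and mRpS) were left out. The symbols alone chose them, and no measured value was used. This gave 93 of the 13372 genes with exonic or intronic features, of which 54 belong to the large subunit and 39 to the small subunit. Their features comprised 462 exon segments, 229 features of the class the authors call mRNA and 298 intron segments. Exon and mRNA features of a gene were summed as its exonic reads, and intron segments as its intronic reads.

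The 6 libraries came from OSS cells, a cultured Drosophila line derived from the somatic sheath of the ovary. All of them were labelled as eCLIP of Asterix (Gtsf1), a small zinc-finger protein of the piRNA pathway. The protein was expressed from its endogenous promoter with a C-terminal GFP-FRT-Precission-V5-3xFLAG-P2A tag, which the controls carried too, and no library of untagged cells was analysed here. Crosslinked cells had been exposed to ultraviolet light of 254 nm, which joins proteins covalently to RNA they touch, and non-crosslinked cells had not. RNA recovered on anti-FLAG beads (IP, immunoprecipitation) was compared with RNA of the lysate (input). Crosslinked cells gave 2 IP and 2 input libraries, and cells without crosslinking gave 1 of each. The labels do not say whether replicates came from separate cultures, so p-values measure only the spread between these libraries.

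Each ribosome carries 1 copy of most of these proteins, and in animals their messenger RNAs are among the most abundant of the cell. Many ribosomal protein genes of Drosophila also host small nucleolar RNAs (snoRNAs) within their introns. H/ACA snoRNAs guide the conversion of uridine to pseudouridine in ribosomal RNA, and C/D snoRNAs guide the methylation of its riboses. An intronic snoRNA is cut from the spliced-out intron of its host gene, so the exons and the introns of a host serve different products.

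Total reads were between 8259354 and 15992638 in the crosslinked libraries. The non-crosslinked pair was shallower, with 4194751 reads (input) and 2619716 reads (IP). Ribosomal RNA took between 73.2% and 85.8% of annotated reads. Exonic reads of all genes took between 3.00% and 5.71%, with the lowest share in the non-crosslinked IP. The genes tj, piwi, Fas3, zfh1 and fs(1)Yb, taken here as markers of somatic cells of the ovary, were all detected. Their summed levels were between 126 and 556 RPM, the reads per 1000000 annotated reads. In the non-crosslinked input, piwi supplied 424 of the 556 RPM. Fas3 was low throughout, with 3 reads in the non-crosslinked IP. Germline markers (vas, nos, aub, bam and osk) together gave between 0.491 and 1.99 RPM, from 3 to 8 reads per library, with bam and osk at 0 in some libraries. The summed somatic markers were lower in the crosslinked IPs (159 and 181 RPM) than in the crosslinked inputs (260 and 285 RPM), and their part in the results below was not tested. The levels below are RPM of annotated reads, not corrected for gene length, so they are compared between libraries and not between genes.

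Ribosomal protein exons took a larger share of the crosslinked IP libraries than of the inputs. In crosslinked IP, 32297 and 26119 reads made up 0.344% and 0.336% of annotated reads. In crosslinked input, 35597 and 20055 reads made up 0.227% and 0.179%. The group means were 0.203% ± 0.034 (SD, n = 2) in input and 0.340% ± 0.0052 (SD, n = 2) in IP, a ratio of 1.68, and the groups did not overlap. All levels are shares of a bulk library, so a rise of these genes cannot be told apart from a fall of other RNAs, nor fewer cells of a type from less RNA per cell. An exact permutation test of 2 against 2 libraries cannot go below p = 0.33, so none is given. The share also differed without crosslinking, at 0.242% (IP) and 0.127% (input), a ratio of 1.90. Relative to the exonic reads of all genes, ribosomal protein exons took 7.01% and 6.76% in crosslinked IP against 3.98% and 3.13% in crosslinked input. Without crosslinking they took 8.06% (IP) against 2.69% (input).

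Intronic reads of the same genes outnumbered exonic reads in every crosslinked library. They took 56.6% and 64.3% of the reads of the 93 genes in crosslinked IP against 63.8% and 75.3% in crosslinked input. Without crosslinking they took 61.7% (IP) and 48.1% (input). As a share of annotated reads, introns took 0.472% ± 0.10 (SD, n = 2) of the crosslinked inputs and 0.527% ± 0.11 (SD, n = 2) of the crosslinked IPs. These groups overlapped, since input replicate 2 (0.544%) lay above IP replicate 1 (0.448%). Replicate 2 was above replicate 1 in both groups, and within each replicate number the IP (0.448% and 0.606%) was above the input (0.400% and 0.544%). Against the intronic reads of all genes the share was 9.94% and 11.8% in crosslinked IP, lower than the 12.2% and 16.3% of crosslinked input. Without crosslinking it was 19.2% (IP), higher than the 4.25% of the input. For single libraries, the 95% Wilson score interval of the exonic share of annotated reads ran from 0.225% to 0.229% in crosslinked input replicate 1. Such intervals cover counting error only.

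**Figure D1:**
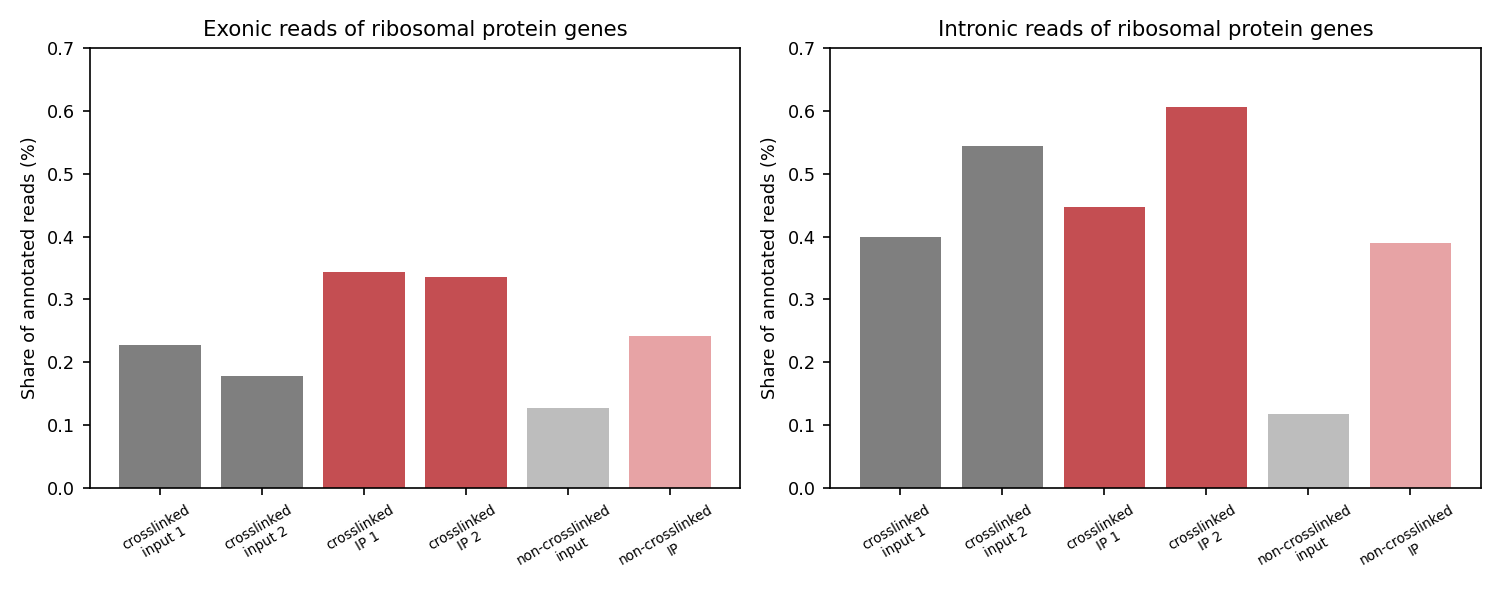
Exonic reads (left) and intronic reads (right) of the 93 ribosomal protein genes as a percentage of annotated reads, 1 bar per library with no error bar. The exonic share is 0.344% and 0.336% in the crosslinked IPs against 0.227% and 0.179% in the crosslinked inputs, and the intronic shares of these groups overlap.

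In the count test, exonic reads rose in the crosslinked IP for 66 ribosomal protein genes and fell for 0, with the edgeR quasi-likelihood test and Benjamini-Hochberg adjustment over all 8775 tested items. At an unadjusted p under 0.05 the number that fell was also 0, with edgeR and with DESeq2. Of the 93 genes, 86 had a mean of at least 10 exonic reads over the 4 crosslinked libraries and were tested, and 20 of these passed the threshold of 0.05 in neither direction. Over all 5867 genes tested for exonic reads, 5.88% were higher and 26.3% were lower. The median log2 ratio of IP over input was 0.76 for the ribosomal protein genes, between -0.27 and 1.62, and -0.25 for all genes. Library scaling in this test came from all items together, and with scaling on exonic mRNA reads the median of all genes moved to 0.03. Among large subunit genes, 35 of 51 tested were higher, with a median log2 ratio of 0.65. Among small subunit genes, 31 of 35 were higher, with a median of 0.82, and the difference between the subunits was not tested.

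Single libraries were compared next. All 66 genes that were higher in the test were above input in each of the 4 pairings of a crosslinked IP with a crosslinked input. These pairings use the libraries of the test itself, so this is no separate support for the calls. Of the 86 tested genes, 77 were above 0 in every such pairing, and 21.2% of all tested genes were. In 1 pair of libraries without replicates, the non-crosslinked IP was above its input for 77 of the 86 genes, against 31.5% of all genes tested for exonic reads. The median log2 ratio of that pair was 0.97 for the ribosomal protein genes and -0.40 for all genes. Of the 66 genes called in the crosslinked libraries, 63 were above 0 in the non-crosslinked pair as well. Across the 86 genes, the crosslinked and non-crosslinked log2 ratios were correlated (Pearson r = 0.519, Spearman rho = 0.535), and across all 5867 genes the values were r = 0.357 and rho = 0.343. These correlations are across genes, which share their libraries and scaling and are not independent replicates. Unequal recovery of RNA on the beads and binding to the tagged protein cannot be told apart in these groups, since both IP groups carried the tag and no library of untagged cells was analysed here.

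**Figure D2:**
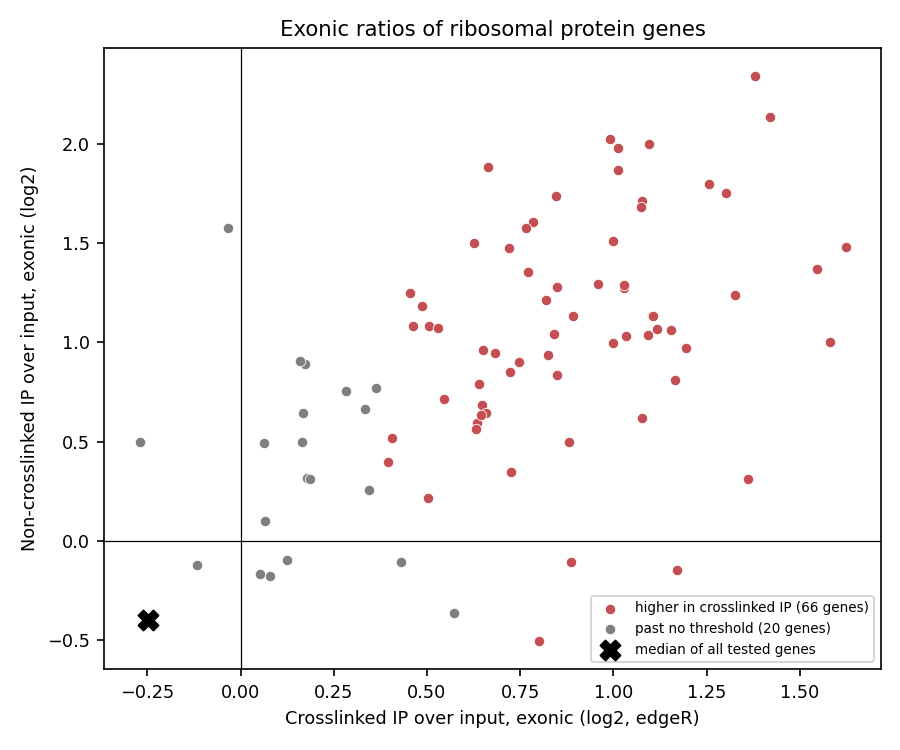
Exonic log2 ratio of IP over input for the 86 tested ribosomal protein genes, 1 point per gene, in the crosslinked libraries (horizontal axis) and in the non-crosslinked pair (vertical axis). Most points lie above 0 on both axes, while the median of all tested genes, drawn as a cross, lies at -0.25 and -0.40.

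The 5 genes with the highest mean exonic level over the 6 libraries were RpL3, RpL4, RpL7A, RpL8 and sta. RpL3, a large subunit protein that reaches towards the peptidyl transferase centre, gave 91.0 and 85.5 RPM in the crosslinked IPs, against 87.3 and 72.8 RPM in the crosslinked inputs, and 67.0 RPM against 47.5 RPM without crosslinking. RpL4, whose protein lines part of the tunnel for the growing peptide, gave 81.5 and 93.5 RPM in the crosslinked IPs, against 78.6 and 68.3 RPM in the crosslinked inputs, and 71.8 RPM against 38.5 RPM without crosslinking. The crosslinked groups overlapped for RpL3 and were close but separate for RpL4, and the log2 ratios were 0.06 ± 0.15 (edgeR adjusted p = 0.759) for RpL3 and 0.17 ± 0.14 (edgeR adjusted p = 0.364) for RpL4. RpL7A, a protein of the large subunit, was measured at 83.8 and 82.2 RPM in the crosslinked IPs, against 53.5 and 37.8 RPM in the crosslinked inputs, and 85.4 RPM against 27.6 RPM without crosslinking. RpL8, which lies beside the peptidyl transferase centre, was measured at 80.7 and 82.4 RPM in the crosslinked IPs, against 54.7 and 42.7 RPM in the crosslinked inputs, and 83.2 RPM against 22.1 RPM without crosslinking. The stubarista gene, sta, encodes the small subunit protein related to the laminin receptor and reached 80.9 and 79.2 RPM in the crosslinked IPs, against 49.2 and 36.7 RPM in the crosslinked inputs, and 75.8 RPM against 32.2 RPM without crosslinking. In these 3 genes both crosslinked IPs lay above both inputs. Exonic reads rose by 0.78 ± 0.16 (SE, n = 2 and 2 libraries, edgeR adjusted p = 7.65e-04) on the log2 scale for RpL7A, by 0.66 ± 0.15 (edgeR adjusted p = 0.00159) for RpL8 and by 0.82 ± 0.15 (edgeR adjusted p = 3.59e-04) for sta. Without crosslinked IP replicate 2, RpL8 no longer passed the threshold (adjusted p = 0.054).

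The 5 largest exonic increases were seen for RpL30, RpS29, RpL38, RpLP2 and RpL5. RpL30, whose yeast counterpart binds its own transcript, gave 25.8 and 23.3 RPM in the crosslinked IPs, against 7.72 and 7.40 RPM in the crosslinked inputs, and 8.76 RPM against 2.73 RPM without crosslinking. RpS29, a small zinc-binding protein of the small subunit, gave 39.0 and 37.9 RPM in the crosslinked IPs, against 14.2 and 9.99 RPM in the crosslinked inputs, and 13.6 RPM against 6.46 RPM without crosslinking. RpL38, one of the smallest proteins of the large subunit, gave 21.2 and 18.1 RPM in the crosslinked IPs, against 7.25 and 5.35 RPM in the crosslinked inputs, and 6.24 RPM against 2.07 RPM without crosslinking. In each of them the crosslinked IP levels exceeded both crosslinked inputs, as the rule for naming these genes required. The non-crosslinked IP exceeded its input as well, which was not part of the rule. The log2 ratios were 1.62 ± 0.15 (edgeR adjusted p = 1.58e-07) for RpL30, 1.58 ± 0.15 (edgeR adjusted p = 3.71e-07) for RpS29 and 1.55 ± 0.16 (edgeR adjusted p = 1.16e-06) for RpL38. RpLP2 encodes an acidic protein of the ribosomal stalk, which recruits translation factors, and it was measured at 58.3 and 50.7 RPM in the crosslinked IPs, against 21.2 and 17.3 RPM in the crosslinked inputs, and 42.5 RPM against 9.28 RPM without crosslinking. RpL5 encodes a protein that binds 5S ribosomal RNA and was measured at 91.8 and 92.2 RPM in the crosslinked IPs, against 38.2 and 28.6 RPM in the crosslinked inputs, and 60.4 RPM against 11.4 RPM without crosslinking. Neither gene showed overlap between the crosslinked groups, again by the rule for naming. The log2 ratios were 1.42 ± 0.14 (edgeR adjusted p = 7.33e-07) and 1.38 ± 0.15 (edgeR adjusted p = 1.70e-06). The non-crosslinked log2 ratios of these 2 genes, 2.13 for RpLP2 and 2.34 for RpL5, were larger than the crosslinked ones, and that difference was not tested. Across the 86 genes the crosslinked exonic ratio was related to the mean exonic level with rho = -0.334 and to the length of the gene's span with rho = -0.206, as a description over genes of the same libraries.

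The other proteins of the stalk and several well-studied small subunit proteins were also higher. RpLP0 anchors the stalk to the large subunit, and its exonic level was 69.2 and 74.6 RPM in crosslinked IP, 43.7 and 31.9 in crosslinked input, and 56.9 and 23.1 in the IP and input without crosslinking. RpLP1, the partner of RpLP2, stood at 50.8 and 46.8 RPM (crosslinked IP) and 35.5 and 23.0 RPM (crosslinked input), with 34.3 (IP) and 21.6 (input) in the non-crosslinked pair. The log2 ratios were 0.85 ± 0.15 (edgeR adjusted p = 2.63e-04) for RpLP0 and 0.66 ± 0.16 (edgeR adjusted p = 0.00411) for RpLP1, and the crosslinked groups did not overlap. RpLP1 lost its call without either crosslinked IP (adjusted p = 0.0542 without replicate 1 and 0.0768 without replicate 2). RpS3 lies at the entry of the messenger RNA channel and stood at 42.6 and 42.8 RPM in crosslinked IP, 27.4 and 21.5 in crosslinked input, and 32.9 and 11.4 in the IP and input without crosslinking. RpS6, the substrate of the S6 kinase, stood at 52.3 and 56.9 RPM (crosslinked IP) and 39.1 and 31.8 RPM (crosslinked input), with 41.2 (IP) and 24.9 (input) in the non-crosslinked pair. Both were higher in each crosslinked IP than in each input, with log2 ratios of 0.72 ± 0.14 (edgeR adjusted p = 5.37e-04) and 0.54 ± 0.14 (edgeR adjusted p = 0.00402). RpS6 had an adjusted p of 0.0873 without crosslinked IP replicate 2. RpS28b, a small subunit protein, stood at 21.9 and 22.0 RPM in crosslinked IP, 12.8 and 10.2 in crosslinked input, and 12.3 and 3.23 in the IP and input without crosslinking. The crosslinked groups did not overlap, and its log2 ratio was 0.85 ± 0.14 (edgeR adjusted p = 1.62e-04).

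Several Drosophila ribosomal proteins are encoded by pairs of paralogs, of which the second copy is often used in the germline. RpS19a, whose paralog RpS19b is used in the germline, gave 41.1 and 37.7 RPM (crosslinked IP) and 26.7 and 21.0 RPM (crosslinked input), with 25.4 (IP) and 16.1 (input) in the non-crosslinked pair, with a log2 ratio of 0.64 ± 0.14 (edgeR adjusted p = 0.00157). RpS19b gave 3 and 2 reads in crosslinked IP, 9 and 5 reads in crosslinked input and 2 reads in each library without crosslinking, and was under the count minimum. RpL22 gave 29.0 and 31.6 RPM in crosslinked IP, 29.4 and 24.7 in crosslinked input, and 34.2 and 38.8 in the IP and input without crosslinking. Its crosslinked groups overlapped, and the log2 ratio was 0.08 ± 0.13 (edgeR adjusted p = 0.674). RpL22-like, its paralog of the male germline, had at most 3.17 reads in any library and 0 in 3 of the 6. RpS5a stood at 70.2 and 68.5 RPM (crosslinked IP) and 45.0 and 29.2 RPM (crosslinked input), with 49.5 (IP) and 25.6 (input) in the non-crosslinked pair. Its crosslinked groups did not overlap, and its log2 ratio was 0.82 ± 0.17 (edgeR adjusted p = 7.74e-04), with an adjusted p of 0.0511 without crosslinked IP replicate 2. The paralog RpS5b stood at 2.13 and 1.26 RPM in crosslinked IP, 1.08 and 1.38 in crosslinked input, and 0.876 and 0.994 in the IP and input without crosslinking, with overlapping groups and a log2 ratio of 0.43 ± 0.37 (edgeR adjusted p = 0.374). RpS14a and RpS14b are near-identical neighbouring copies, so the division of reads between them is uncertain. RpS14a gave 24.4 and 19.2 RPM (crosslinked IP) and 11.1 and 7.31 RPM (crosslinked input), with 13.4 (IP) and 6.09 (input) in the non-crosslinked pair. RpS14b gave 11.1 and 9.00 RPM in crosslinked IP, 4.98 and 2.32 in crosslinked input, and 4.60 and 1.37 in the IP and input without crosslinking. The crosslinked groups did not overlap in either, and their log2 ratios were 1.15 ± 0.18 (edgeR adjusted p = 7.23e-05) for RpS14a and 1.33 ± 0.23 (edgeR adjusted p = 2.57e-04) for RpS14b. RpL24-like, related to a yeast factor of large subunit assembly, gave 7.24 and 5.54 RPM (crosslinked IP) and 2.62 and 2.85 RPM (crosslinked input), with 2.63 (IP) and 2.98 (input) in the non-crosslinked pair. Its crosslinked IPs were above the inputs, with a log2 ratio of 1.17 ± 0.22 (edgeR adjusted p = 4.41e-04), and its non-crosslinked IP was not above its input.

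The 7 genes under the exonic count minimum were RpL10Aa, RpL22-like, RpL37b, RpS10a, RpS19b, RpS28a and RpS28-like. By their symbols all are paralogs of a gene that was tested. Apart from RpS19b, none reached 4 reads in any library, and fold changes are not given for them. The non-called genes with the lowest log2 ratios were RpL7-like, at -0.27 ± 0.27 (edgeR adjusted p = 0.469), and RpL41, at -0.12 ± 0.13 (edgeR adjusted p = 0.519). RpL41 encodes a very short peptide of the ribosome, and it stood at 54.1 and 56.0 RPM in crosslinked IP, 56.1 and 56.9 in crosslinked input, and 22.3 and 24.4 in the IP and input without crosslinking. RpL7-like was chosen here, like RpL41, after its value was seen, and rested on few reads.

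Within genes, the exonic log2 ratio varied between segments. Of 419 exonic features of these genes that were tested one by one, 283 were higher and 3 were lower, against 6.63% higher and 26.1% lower among the 11765 exonic features of all genes. Features listed for different isoforms can share reads, so the same reads can be counted in several calls. The mRNA features RpL10-RC, RpL10-RD and RpL10-RE, for example, all had a log2 ratio of 1.22 ± 0.29. Restricted to exon segments, 24 of 273 (8.79%) from 21 genes were called with a log2 ratio above 2, which is a 4-fold difference, and 0.755% of all 11128 exon segments were. Most of the 24 segments had a mean over the crosslinked inputs under the count minimum, and entered the test only through their IP reads. Whether this was as frequent among the exon segments of all genes was not tested. The following segments have the largest log2 ratios among those with at least 5 input reads in sum, and were picked with their values in view. Each of them held fewer reads than the count minimum in both crosslinked inputs, and met that minimum only through its IP reads. Their log2 ratios and adjusted p-values therefore come from segments that had to be high in the IP to be tested. The segment listed as RpL41-RA-3 gave 56 and 41 reads (crosslinked IP) and 4 and 1 reads (crosslinked input), with 0 (IP) and 1 (input) in the non-crosslinked pair. The segment RpL7A-RD gave 130.3 and 65.3 reads in crosslinked IP, 7.33 and 4.67 in crosslinked input, and 9.33 and 0 in the IP and input without crosslinking. The segment RpL9-RB, from a gene of the large subunit, gave 50 and 45 reads (crosslinked IP) and 2.50 and 5 reads (crosslinked input), with 2 (IP) and 0 (input) in the non-crosslinked pair. The log2 ratios of these segments were 4.85 ± 0.34 (edgeR adjusted p = 4.92e-06), 4.64 ± 0.38 (edgeR adjusted p = 1.25e-05) and 4.36 ± 0.35 (edgeR adjusted p = 1.09e-05), in that order. The segment RpL4-RA followed, with 24 and 23 reads in crosslinked IP, 3 and 2 in crosslinked input, and 0 and 0 in the IP and input without crosslinking. The segment RpS20-RA gave 45 and 30 reads (crosslinked IP) and 5 and 4 reads (crosslinked input), with 2 (IP) and 3 (input) in the non-crosslinked pair. Their log2 ratios were 3.81 ± 0.36 (edgeR adjusted p = 3.37e-05) for RpL4-RA and 3.67 ± 0.31 (edgeR adjusted p = 1.69e-05) for RpS20-RA, and in the non-crosslinked pair they held at most 3 reads. The RpL41 and RpL4 genes as a whole were not called. The position of a segment within its transcript is not given in the sources used here.

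The 3 exonic features that were lower belong to RpL3 and RpL41. The RpL3 segment shared by isoforms RA and RG gave 93 and 79.2 reads in crosslinked IP, 293 and 183 in crosslinked input, and 20 and 56 in the IP and input without crosslinking. The segment listed as RpL41-RA gave 191 and 185 reads (crosslinked IP) and 465 and 341 reads (crosslinked input), with 17 (IP) and 64 (input) in the non-crosslinked pair. Both were below input in the crosslinked IPs relative to library size, with log2 ratios of -0.80 ± 0.13 (edgeR adjusted p = 0.00126) and -0.44 ± 0.13 (edgeR adjusted p = 0.0222), and the RpL3-RH segment had -0.73 ± 0.14 (edgeR adjusted p = 0.00234). Other segments of the same genes moved the opposite way: RpL3-RD had a log2 ratio of 1.33 ± 0.17 (edgeR adjusted p = 2.14e-04) and RpL41-RA-3 rose as given above. The mRNA class, a separate count that the authors list beside exons, supplied 18.3% and 17.3% of the exonic reads of ribosomal protein genes in crosslinked IP, above the 15.5% and 14.7% of crosslinked input. Without crosslinking it supplied 22.3% (IP) and 15.2% (input). The share of this class in the exonic reads of all genes was higher in IP too. It was 7.60% and 7.48% in crosslinked IP against 5.96% and 5.48% in crosslinked input, and 10.0% (IP) against 5.76% (input) in the non-crosslinked pair. What this class counts is not given in the sources used here.

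Introns of the ribosomal protein genes moved in both directions. Of the 93 genes, 80 had intronic features listed and 29 passed the minimum of 10 reads. In the crosslinked IP 10 of the 29 were higher, 5 were lower and 14 were not called by the edgeR test. Among the 1889 genes tested for introns, 52.7% were higher and 2.38% lower. The median log2 ratio was 0.32 for the ribosomal protein introns, between -2.49 and 3.80, against 0.64 for all introns. The non-crosslinked IP was above its input for 24 of the 29 genes, with a median log2 ratio of 1.48. Among all introns tested, 20.6% were above 0 in that pair, and the median was -0.80.

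Intronic reads came almost wholly from snoRNA host genes. By position in the RefSeq annotation of the Drosophila genome (Release 6, the dm6 assembly), 29 of the 93 genes hold at least 1 snoRNA within their span, and 76 snoRNAs lie in them. All 93 genes were found in that annotation, 2 of them (RpL37a and RpL37b) under an older symbol. The table gives no strand, so a snoRNA is placed by position only. The host genes held between 99.4% and 99.9% of the intronic reads of all 93 genes in every library, and 26 of the 29 genes tested for introns were hosts. RpS5a on chrX:17143588-17148264 holds 14 snoRNAs and RpS7 holds 7. Of 57 tested genes without a snoRNA, 45 were higher in exonic reads (median 0.73), and of 29 hosts 21 were (median 0.78). The difference between these groups was not tested.

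The 5 genes of highest mean intronic level were the hosts RpS5a, RpS7, RpL3, RpL17 and RpS20. The introns of RpS5a, a small subunit gene, gave 1082 and 1371 RPM in the crosslinked IPs, against 857 and 1126 RPM in the crosslinked inputs, and 908 RPM against 205 RPM without crosslinking. The introns of RpS7 gave 658 and 975 RPM in the crosslinked IPs, against 646 and 1045 RPM in the crosslinked inputs, and 497 RPM against 137 RPM without crosslinking. The introns of RpL3 gave 557 and 764 RPM in the crosslinked IPs, against 434 and 543 RPM in the crosslinked inputs, and 973 RPM against 347 RPM without crosslinking. Crosslinked IP and input levels overlapped for RpS5a and RpS7 and did not overlap for RpL3. Their log2 ratios were 0.22 ± 0.19 (edgeR adjusted p = 0.371), -0.14 ± 0.23 (edgeR adjusted p = 0.652) and 0.35 ± 0.19 (edgeR adjusted p = 0.151). RpL3 introns were called higher without crosslinked input replicate 2 (adjusted p = 0.0291), with the replicate number as a block (0.0436) and with scaling on exonic mRNA reads (0.00964). RpL17 introns gave 666 and 922 RPM in the crosslinked IPs, against 426 and 598 RPM in the crosslinked inputs, and 441 RPM against 131 RPM without crosslinking. RpS20 introns gave 280.0 and 402 RPM in the crosslinked IPs, against 237 and 298 RPM in the crosslinked inputs, and 253 RPM against 52.4 RPM without crosslinking. The crosslinked groups overlapped for RpS20 and not for RpL17, and the log2 ratios were 0.54 ± 0.20 (edgeR adjusted p = 0.0404) for RpL17 and 0.26 ± 0.19 (edgeR adjusted p = 0.286) for RpS20. RpL17 was no longer called without crosslinked input replicate 1 (adjusted p = 0.285) or without crosslinked IP replicate 2 (0.458), or with a count minimum of 1 (0.0539), and RpS20 was called without crosslinked input replicate 2 (0.0471). With scaling on exonic mRNA reads RpS5a (0.0306) and RpS20 (0.0242) were called higher too. In all 5 genes the non-crosslinked IP was above its input, with log2 ratios of 2.14 for RpS5a, 1.85 for RpS7, 1.48 for RpL3, 1.75 for RpL17 and 2.25 for RpS20.

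Large intronic increases were found in RpL13A, RpL28, RpL14 and RpL10, 3 of which host C/D snoRNAs. RpL13A (chr3R:5624474-5625947) gave 13.4 and 10.6 RPM in the crosslinked IPs, against 1.08 and 0.446 RPM in the crosslinked inputs, and 1.75 RPM against 0.249 RPM without crosslinking. RpL28 gave 14.3 and 16.9 RPM in the crosslinked IPs, against 4.27 and 2.16 RPM in the crosslinked inputs, and 6.57 RPM against 1.24 RPM without crosslinking. Every crosslinked IP was above every crosslinked input in these genes, as the rule for naming them required. The log2 ratios were 3.80 ± 0.27 (SE, n = 2 and 2 libraries, edgeR adjusted p = 1.20e-08) for RpL13A and 2.13 ± 0.21 (edgeR adjusted p = 3.89e-07) for RpL28. RpL13A had 17 and 5 intronic reads in the crosslinked inputs, and without crosslinked input replicate 1 the log2 ratio was 4.62 for RpL13A and 2.74 for RpL28. RpL14 gave 5.32 and 8.37 RPM in the crosslinked IPs, against 1.79 and 1.16 RPM in the crosslinked inputs, and 2.63 RPM against 0.249 RPM without crosslinking. RpL10, which joins the large subunit late in its assembly and holds no snoRNA, gave 2.13 and 1.80 RPM in the crosslinked IPs, against 0.574 and 0.624 RPM in the crosslinked inputs, and 0 RPM against 0 RPM without crosslinking. The log2 ratios were 2.07 ± 0.27 (edgeR adjusted p = 1.40e-05) for RpL14 and 1.64 ± 0.39 (edgeR adjusted p = 0.00310) for RpL10. By the same rule, the crosslinked groups did not overlap. RpL10 had 20 and 14 intronic reads in the crosslinked IPs against 9 and 7 in the inputs. It met the minimum mean of 10 only through its IP reads, and its adjusted p was 0.0602 with DESeq2. The exonic log2 ratios of RpL13A and RpL28 were 0.33 and 0.07, and neither passed the threshold. The exons of RpL14, at 0.89 ± 0.14 (edgeR adjusted p = 8.21e-05), and of RpL10, at 0.51 ± 0.15 (edgeR adjusted p = 0.0135), were called higher. Further intronic increases were those of RpL30 (1.57), RpL27A (1.49), RpS15Aa (1.22), sta (1.21) and RpL17 (0.54). RpL30 and RpS15Aa also rested on few reads: RpL30 had 19 and 13 intronic reads in the crosslinked IPs against 16 and 0 in the inputs, and RpS15Aa had 24 and 11.8 against 19 and 4. Like RpL10, RpL30 met the minimum only through its IP reads. Over the 4 pairings the log2 ratio ran from 0.63 to 3.60 for RpL30 and from 0.31 to 2.35 for RpS15Aa. Without crosslinked input replicate 2 the log2 ratio was 0.82 for RpL30 (adjusted p = 0.124) and 0.74 for RpS15Aa (0.134), and with DESeq2 the adjusted p was 0.626 and 0.171.

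The introns of RpL5, RpL11 and RpS16 were lower in all 4 crosslinked pairings. RpL5 (chr2L:22532279-22536884) and RpL11 encode the proteins that bind 5S ribosomal RNA together, and each hosts 1 H/ACA snoRNA. RpL5 introns gave 26.7 and 40.8 RPM in the crosslinked IPs, against 160.4 and 195 RPM in the crosslinked inputs, and 24.5 RPM against 27.3 RPM without crosslinking. RpL11 introns gave 84.7 and 116 RPM in the crosslinked IPs, against 194 and 330.4 RPM in the crosslinked inputs, and 32.9 RPM against 25.6 RPM without crosslinking. RpS16, a small subunit gene with both kinds of snoRNA in its span, gave 83.7 and 117 RPM in the crosslinked IPs, against 127 and 151 RPM in the crosslinked inputs, and 138 RPM against 70.3 RPM without crosslinking. The crosslinked groups did not overlap in any of them, because only genes that moved the same way in all 4 pairings were taken. Intronic reads fell by 2.49 ± 0.20 on the log2 scale for RpL5 (edgeR adjusted p = 3.06e-08), and the log2 ratios were -1.48 ± 0.23 (edgeR adjusted p = 6.73e-05) for RpL11 and -0.56 ± 0.17 (edgeR adjusted p = 0.0167) for RpS16. RpS16 lost its call without crosslinked input replicate 2 (adjusted p = 0.0509), without crosslinked IP replicate 1 (0.309) or 2 (0.0555), with DESeq2 (0.0568) and with scaling on exonic mRNA reads (0.24). In the non-crosslinked pair the log2 ratio was -0.15 for RpL5, 0.35 for RpL11 and 0.96 for RpS16. RpL4 and RpS4 were also called lower (-0.60 each), although the highest of the 4 pairings was 0.02 for RpL4 and 0.03 for RpS4. Both lost the call without crosslinked input replicate 2 (adjusted p = 0.324 for RpL4 and 0.328 for RpS4), without crosslinked IP replicate 1 (0.308 and 0.299) or 2 (0.123 and 0.129), and with DESeq2 (0.0624 and 0.076). Introns supplied 22.5% and 30.7% of RpL5 reads in crosslinked IP against 80.8% and 87.2% in crosslinked input. Without crosslinking they supplied 28.9% (IP) against 70.5% (input). RpL5 was therefore mostly intronic in each input and mostly exonic in each IP.

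**Figure D3:**
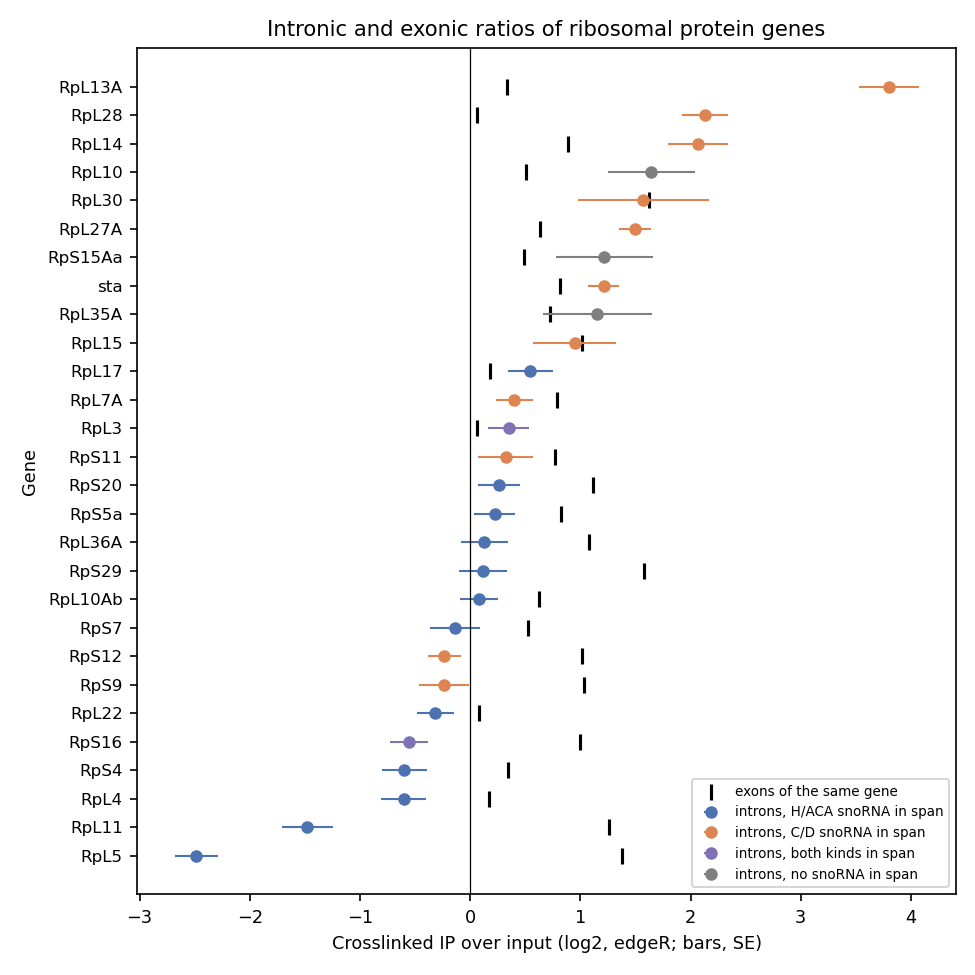
Crosslinked IP over input on the log2 scale for the introns (points with SE bars, coloured by the snoRNAs within the gene's span) and the exons (black ticks) of the ribosomal protein genes tested for introns, 1 of which is not drawn. Introns range from -2.49 in RpL5 to 3.80 in RpL13A, and the exons of the same genes lie above 0.

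A test of the intronic against the exonic change within each library does not depend on scaling between libraries. Of the 29 genes, 6 had a higher change in introns than in exons and 10 a lower one, with a median difference of -0.41 on the log2 scale. Over all 1571 genes tested, 63.5% were higher and 2.23% lower, with a median of 0.97. The higher genes included RpL13A, RpL28, RpL14, RpL10 and RpL27A, and the difference was 3.49 ± 0.31 (edgeR adjusted p = 2.24e-06) for RpL13A and 2.10 ± 0.24 (edgeR adjusted p = 1.84e-05) for RpL28. The lowest differences were those of RpL5, at -3.88 ± 0.27 (edgeR adjusted p = 3.20e-07), and RpL11, at -2.68 ± 0.34 (edgeR adjusted p = 3.32e-05). RpS16 followed at -1.57 ± 0.27 (edgeR adjusted p = 2.77e-04) and RpS29, whose exons were among the 5 largest increases, at -1.45 ± 0.31 (edgeR adjusted p = 0.00143). The differences of RpS9, RpS12, RpS4, RpL36A, RpS20 and RpL4 lay between -1.26 and -0.75. Without crosslinked IP replicate 2, 3 genes were higher, and without crosslinked input replicate 2 and crosslinked IP replicate 1, 5 and 6 genes were lower. Across the 29 genes, exonic and intronic log2 ratios had a Spearman rho of -0.2, over genes of the same libraries.

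The intronic changes were also listed by the kind of snoRNA in the span, a split chosen after the values were seen and therefore given without a test. Over all 1889 genes tested for introns, 52.7% were higher and 2.38% lower, with a median log2 ratio of 0.64. Of the 12 genes with H/ACA snoRNAs only, 1 was higher and 4 were lower in the crosslinked IP, with a median log2 ratio of -0.03 and 6 genes above 0, and 2 of the 4 lower ones were RpL4 and RpS4. Of the 12 genes with C/D snoRNAs only, 7 were higher and 0 lower, with a median of 1.35, and 0 were lower at an unadjusted p under 0.05 with edgeR or DESeq2, so the share higher was near that over all genes. Of the 2 genes with both kinds, 1 was lower, and of the 3 without a snoRNA, 2 were higher (RpL10 and RpS15Aa, both on few reads). The H/ACA hosts supplied 75.3% and 76.2% of the intronic reads of the 93 genes in crosslinked IP, below the 79.8% and 82.9% of crosslinked input. The C/D hosts supplied 9.81% and 8.96% in crosslinked IP, above the 5.91% and 4.22% of crosslinked input. Without crosslinking, the medians of the log2 ratio of the pair were 1.78 for H/ACA hosts and 1.65 for C/D hosts.

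The snoRNAs within these genes were listed by kind as well, again without a test of the difference. Of 42 tested H/ACA snoRNAs in the spans of ribosomal protein genes, 4 were higher and 28 lower in the crosslinked IP, with a median log2 ratio of -1.13. Of 29 tested C/D snoRNAs, 20 were higher and 5 lower, with a median of 0.70. Over all 233 tested snoRNAs, 32.2% were higher and 39.1% lower, with a median of -0.28. Of the H/ACA snoRNAs, 14 lie in RpS5a and 7 in RpS7. Several copies whose names differ only in the final letter hold fractional counts, so they can share reads. The same reads can then count in several calls. In RpL13A, the C/D snoRNA Me28S-U2134b had a log2 ratio of 3.38 ± 0.21 and its neighbour Me28S-U2134a had 0.55 ± 0.16. In RpL11, the H/ACA snoRNA Psi28S-2444 had -3.85 ± 0.25, and in RpL5 Psi28S-2996 had -1.03 ± 0.19. RpS16 holds both kinds, and there the C/D snoRNA Me28S-G2173 had 2.04 ± 0.21 while the H/ACA snoRNAs Psi28S-1175a, Psi28S-1175b and Psi28S-1175c had -0.78 ± 0.20, -1.19 ± 0.17 and -1.53 ± 0.16. The 5 lower C/D snoRNAs lay in 4 hosts. Both of those in RpS12, Me28S-A774a (-1.93 ± 0.16) and Me28S-A774b (-1.78 ± 0.16), were lower, as was the only one in RpL7A, Or-CD10 (-1.39 ± 0.16). In RpL3, Me18S-C1096 had -0.71 ± 0.16 and Me28S-G2017 had 1.51 ± 0.16. The C/D snoRNA Or-CD12 in RpL28 had -1.61 ± 0.16, whereas Or-CD11c in the same gene had 1.43 ± 0.15. In RpS5a, the H/ACA snoRNAs Psi28S-1135c, Psi28S-1135d, Psi28S-1135e and Psi28S-1135f were the 4 that were higher, between 0.56 and 0.74. Names beginning Psi or Or-aca were read as H/ACA and names beginning Me, Or-CD, CD or U49 as C/D.

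**Figure D4:**
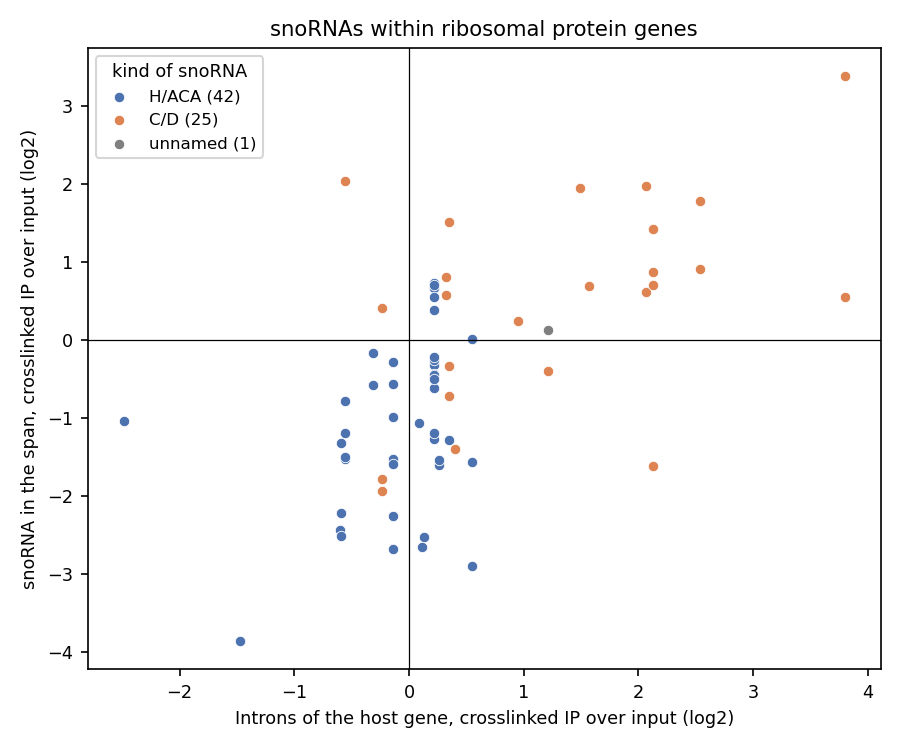
Crosslinked IP over input on the log2 scale for each tested snoRNA (vertical axis) and for the introns of the gene whose span holds it (horizontal axis), 1 point per snoRNA, coloured by kind. Most H/ACA snoRNAs lie below 0 and most C/D snoRNAs above 0, and snoRNAs of 1 host share their horizontal position.

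The levels of the snoRNAs and of the host introns were also set side by side in each library. For every 100 reads of the nested snoRNAs there were 47.6 and 50.4 intronic reads in crosslinked IP against 23.8 and 23.4 in crosslinked input. Without crosslinking there were 125 (IP) against 31.0 (input). The intronic reads per snoRNA read were thus higher in each IP than in its input. Across 68 snoRNAs, the log2 ratio of the snoRNA and that of its host's introns had Pearson r = 0.614 and Spearman rho = 0.559, given as a description, since snoRNAs of 1 host share its value and all share the libraries. How reads that cover both a snoRNA and its host intron were divided is not given in the sources used here, and the part of such reads in the intronic values was not tested.

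Single introns of 1 gene moved in opposite directions. Of 53 intron segments tested one by one, 18 were higher and 10 lower, against 49.6% and 2.06% of the 3795 intron segments of all genes. The RpS5a intron segment listed for isoforms RA, RB and RC gave 4190.3 and 4366 reads in crosslinked IP, 2752 and 2203 in crosslinked input, and 827 and 216 in the IP and input without crosslinking. The RpS5a segment shared by all 4 isoforms gave 1577 and 1680.5 reads (crosslinked IP) and 7383 and 7731 reads (crosslinked input), with 378 (IP) and 373 (input) in the non-crosslinked pair. The first rose in the crosslinked IPs, with a log2 ratio of 1.44 ± 0.17 (edgeR adjusted p = 1.54e-04), and the other fell by 1.60 ± 0.22 (edgeR adjusted p = 4.18e-04), so the sum over the gene hid both. In RpS12, a gene with C/D snoRNAs, the intron segment listed as RpS12-RB-2 gave 41 and 62 reads in crosslinked IP, 27 and 12 in crosslinked input, and 7 and 1 in the IP and input without crosslinking. The intron segment RpS12-RB-3 gave 66 and 52 reads (crosslinked IP) and 189 and 158 reads (crosslinked input), with 3 (IP) and 2.33 (input) in the non-crosslinked pair. RpS12-RB-2 was higher, at 2.06 ± 0.32 (edgeR adjusted p = 7.84e-04), and RpS12-RB-3 lower, at -0.91 ± 0.16 (edgeR adjusted p = 0.00187). In RpL3, the segment RpL3-RD, with 7 to 25.5 reads in the crosslinked libraries, was higher at 2.06 ± 0.35 (edgeR adjusted p = 0.00130). RpL3-RG-2 held most of the intronic reads of the gene together with a segment of equal counts, and was not called, at 0.42 ± 0.19 (edgeR adjusted p = 0.114). Segments listed for different isoforms can share reads, so the counts of calls given above hold some reads more than once. The RpL5 segments of isoforms RG and RH, for example, both had a log2 ratio of -2.42 ± 0.20. Differences between segments of 1 gene were not tested. The segments named here were picked with their values in view.

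**Figure D5:**
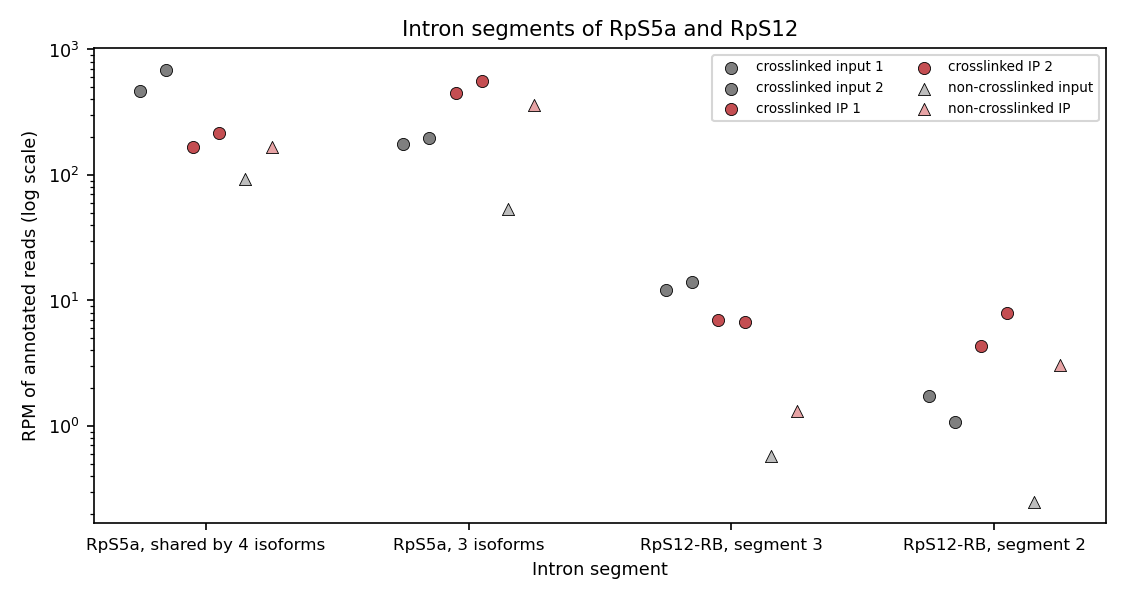
Level of 2 intron segments of RpS5a and 2 of RpS12 in each of the 6 libraries, in RPM of annotated reads on a log axis, 1 point per library (circles crosslinked, triangles non-crosslinked, red IP, grey input). Within each gene, 1 segment is higher and the other lower in the crosslinked IPs than in the crosslinked inputs, while in the non-crosslinked pair the IP is above the input in all 4 segments.

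Other genes of ribosomes and of ribosome assembly were compared by the same test. Of the 73 genes for proteins of the mitochondrial ribosome, 34 were tested, 0 were higher and 3 lower (mRpS9, mRpL37 and mRpS5), and the median exonic log2 ratio was 0.08. At an unadjusted p under 0.05, 5 were higher with edgeR and 0 with DESeq2. Standard errors in this list ran from 0.18 (mRpS5) to 0.46 (mRpL10), larger than for most ribosomal protein exons. Log2 ratios near 1 could therefore stay uncalled, as for mRpL46 (1.05 ± 0.45, edgeR adjusted p = 0.0752). Over all genes, 5.88% were higher and 26.3% lower, with a median of -0.25. Of 30 genes for ribosome biogenesis factors and ribosome partners, 28 were tested, 3 were higher and 7 lower, with a median of -0.29, against 5.88% higher and 26.3% lower over all genes, so the lower share was near that of all genes. The higher ones were Rrp4 (1.13), a component of the RNA exosome, Nop60B (0.64), the pseudouridine synthase of the H/ACA particle, and Rack1 (0.48), a protein bound to the small subunit. The lower ones were l(3)72Dn (-1.03), Nopp140 (-0.93), Ns1 (-0.87), RpI135 (-0.82), RpI1 (-0.72), pit (-0.57) and Nnp-1 (-0.53), of which RpI1 and RpI135 encode subunits of RNA polymerase I. In the non-crosslinked pair the medians were -0.12 for the mitochondrial list and 0.20 for the biogenesis list, against 0.97 for the cytoplasmic ribosomal proteins.

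The table of enrichment ratios that the authors deposited for the series lists part of these features. In the authors' deposited table the median ratio was 1.69 for 280 exon segments of ribosomal protein genes, against 0.990 for all 18852 exon segments listed. The authors' deposited table gave 1.72 for 189 features of the mRNA class, against 1.22 for all, and 2.53 for 84 intron segments, against 2.06 for all. The formula of the ratio is not given in the sources used here, and it is not compared with the log2 ratios above.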

How the data were processed

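Libraries were grouped by the crosslinking and pull-down given in the labels. Per the submitters' processing notes, the tools included bcl2fastq 2.19, STAR 2.5.2b and bedtools 2.29.0, and the builds dm6 and mm10 were named without their roles. How reads were counted, which annotation was used and whether PCR copies were removed is not given in the sources used here. The authors deposited an estimated count (fractional) and an RPM value per feature for each library, and a ratio per feature for the series. Their RPM is scaled to all reads, whereas the RPM given above was recomputed from the counts on annotated reads. Unannotated reads, 1.98% to 12.9% per library, stayed out of library sizes and tests. Features not listed in a library were set to 0.

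Counts were summed per gene, rounded and tested with edgeR 4.0.16 (quasi-likelihood, TMM, R 4.3.3) on the 4 crosslinked libraries, for items with a mean of at least 10. The change of introns against exons was tested with the library as a block. Non-crosslinked ratios are log2 CPM with a prior count of 2, without a test. On simulated data with 200 items changed 4-fold, the IP test on 8775 items recovered 95% with 3 false calls, and the test of introns against exons on 1571 genes recovered 88% with 5. DESeq2 1.42.0, other scalings, count minimums of 1 and 100, other denominators and leaving out each replicate were tried as alternatives. Counts of replicates were further apart than read sampling allows. Over all items the chi-square per degree of freedom was 10.4 between inputs and 7.84 between IPs, with annotated reads as the expected split. For ribosomal protein genes it was 1.62 and 1.22 over exons and 26.8 and 5.21 over introns, with the split of their own reads expected. The values for these genes leave out a shift that they share, so they are not comparable with those over all items. Over all 8775 items, same-numbered input and IP libraries had a correlation of deviations of 0.0455, so the main test did not treat them as pairs. The intronic share of the ribosomal protein genes was nonetheless higher in replicate 2 than in replicate 1 in both groups. A replicate block was tried as an alternative.

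Genes were named by a rule: the 5 of highest mean exonic and intronic level, the 5 largest increases and decreases that moved the same way in all 4 pairings, and a fixed list of stalk proteins, paralogs and well-known members. The values of 1 gene are not reported here. The members, gene lists and tests were chosen with earlier results of these data known. Figures were drawn with matplotlib 3.10.9.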

Additional observations from a re-analysis of the deposited data

Results flagged for a closer look

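In 4 cases every crosslinked IP and input pairing moved one way and the single non-crosslinked pair moved the other way, and in none of them was the difference tested. RpL11 introns had a log2 ratio of 0.352 without crosslinking, against -1.96 to -0.741 in the crosslinked pairings. RpS16 introns had 0.961 without crosslinking, against -0.852 to -0.121. RpL24-like exons had -0.149 without crosslinking, against 0.914 to 1.41, on 18 reads in the non-crosslinked libraries together. RpL30 introns had -0.477 without crosslinking, against 0.626 to 3.60, on 1 read in the non-crosslinked libraries together.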

How the results depend on the processing

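The 66 exonic increases were 58 with DESeq2 and 49 to 70 when a replicate was left out. The replicate block gave 69 exonic increases and 0 decreases, 13 intronic increases and 6 decreases, and 6 genes above and 13 below 0 for introns against exons. Counting genes with at least 1 lower exonic feature gave 2 in place of 0. The 10 intronic increases became 16 with scaling on exonic mRNA reads, 17 with a count minimum of 1 and 4 with a minimum of 100, and 15 without crosslinked input replicate 2. The 5 intronic decreases became 2 with DESeq2, 3 on library size alone, 2 with scaling on exonic mRNA reads and 3 with a minimum of 100. They ranged from 2 to 5 over left-out replicates, with 2 without crosslinked input replicate 2 or either crosslinked IP. For introns against exons, the 6 higher genes became 2 with a minimum of 100 and 3 to 5 over left-out replicates, and the 10 lower genes 5 to 13. The exonic share ratio of 1.68 was 1.40 without ribosomal RNA and 1.94 over exonic reads of all genes, and the intronic ratio of 1.12 was 0.761 over intronic reads of all genes. The denominators by class, the split of hosts and the exonic count without hosts (45) were chosen after seeing the data. With scaling on exonic mRNA reads, higher calls were 50.5% of all exonic calls in place of 18.3%. Counts over all genes changed too: DESeq2 called 152 exonic sums higher and 626 lower, and 561 introns higher and 18 lower, in place of 345, 1545, 996 and 45. Of 400 alternative values of 41 results for single genes, 349 kept direction and side of the threshold, 35 lost the call and 8 gained it. Another 8, of 4 results, changed sign without a call under either setting (RpS7 introns, and the exons of RpL3, RpL22 and RpS5b), and 0 called values reversed. With scaling on exonic mRNA reads the exons of RpL4 (adjusted p = 0.0215) and RpL22 (0.0477) were called higher, and the introns of RpL4 and RpS4 lost their calls, as on library size alone and with a minimum of 100. Except where the construction shows it, the cause of a change was not tested. Each non-crosslinked group had 1 library, and the intronic reads of that pair ran from 0 in RpL10 to 3619 in RpL3.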
